A study of Mus musculus with 6 samples.

Results

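The genes described here encode the proteins of the cytosolic ribosome, the particle that translates nuclear mRNAs. They were chosen by symbol, as names that start with Rps or Rpl and a digit together with Rpsa, Rplp0, Rplp1 and Rplp2, leaving out pseudogene names, the Rps6k kinases and binding proteins. This gave 84 of 26216 gene names, 32 of the small and 52 of the large subunit, of which 81 were among the 13108 names with the higher mean values that were tested. LT/ST-HSCs, the blood stem cells of the bone marrow, were compared between 3 Ltbr-/- and 3 Ly5.1 samples. Donor LSKs of both genotypes were mixed in equal parts and injected into lethally irradiated Ly5.1/Ly5.2 F1 hosts, and the stem cells were sorted 6 weeks later as CD48- CD150+ c-kit+ sca1+ cells that lacked lineage markers and Annexin-V. Ltbr-/- cells carry a homozygous deletion within Ltbr, the lymphotoxin beta receptor gene, and the CD45.2 allele of Ptprc, whereas the Ly5.1 control cells are congenic, Ltbr-proficient and carry CD45.1. The donors of Ltbr-/- replicate 1 were 13 weeks old, those of replicate 2 were 10 weeks old and those of replicate 3 were 10 to 13 weeks old, while the donors of each Ly5.1 replicate were 7 to 13 weeks old. Cells of several chimeras were pooled to each replicate, all cells had passed through an irradiated host, and genotype cannot be told apart from the congenic donor strain.

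The labels held for the deleted gene. Ltbr had values of 24.2, 26.4 and 23.1 in the Ltbr-/- samples and of 564, 549 and 522 in the Ly5.1 samples. The 8 listed stem cell markers, among them Kit, Ly6a, Slamf1, Procr, Mecom, Hlf and Meis1, were all among the tested genes, with a summed value of 12583 to 13072 in Ltbr-/- and 14478 to 14737 in Ly5.1 samples, and 0 of 8 were called by limma (4 lower at an unadjusted p below 0.05, as were 11.4% of all tested names, while 15.7% were higher). By the adjusted p alone, Ly6a with a log2 fold change of -0.39 and Meis1 with -0.23 were lower. All values are on the deposited scale, which is adjusted for sequencing depth but not for transcript length, so that values of different genes are not compared as levels. The deposited values carry no read depth per sample, and the spread between the 3 samples of a genotype is the only error available.

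Each ribosome consists of a small subunit, which binds the mRNA and reads its codons, and a large subunit, which joins amino acids and holds the tunnel through which the new chain leaves. Nearly every ribosomal protein is needed in a single copy per particle, and a shortage of some of them causes Diamond-Blackfan anaemia, a failure of red cell formation in the bone marrow. Their mRNAs start with a terminal oligopyrimidine (TOP) stretch of C and T, through which translation of the whole family is regulated together, and blood stem cells are known for a low rate of protein synthesis.

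Ribosomal protein mRNAs were higher in Ltbr-/- than in Ly5.1 LT/ST-HSCs as a family. Of 81 tested members, 73 were higher and 0 were lower when a 1.5-fold difference and an adjusted p below 0.05 were both required (limma, Benjamini-Hochberg adjustment over 13108 names), against 2.72% of all tested names called higher and 0.061% called lower. The middle of their log2 fold changes, the median, was 0.79, or 1.72-fold, with an interquartile range of 0.69 to 0.89, beside a median of -0.01 over the 13027 tested genes other than members. The rise was modest, from 1.51-fold to 2.03-fold among the called members, a range whose lower end is set by the 1.5-fold limit. Over all 81 tested members the log2 fold changes ran from -0.24 to 1.02. In 79 of 81 members all 3 Ltbr-/- values lay above all 3 Ly5.1 values, which was the case for 17.0% of all tested names, and in 1, Rpl21, they lay below, as in 13.5% of all tested names. All 81 tested members were in the top 25% of tested names by mean, where 211 of the 3196 other names, or 6.6%, were called higher. By the adjusted p alone, 78 members were higher and 1 was lower, against 10.6% and 4.18% of all tested names. With quantile normalization, which gives every sample the same distribution of values, the count was 35 higher and 0 lower. In cells sorted in bulk, a larger share of cells rich in these mRNAs and a higher level per cell cannot be told apart.

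Most members had the same highest sample within each genotype. Expressed as the log2 value minus the mean of that gene in Ly5.1, the median over the 81 members was 0.74, 0.79 and 0.84 in Ltbr-/- replicates 1, 2 and 3 and -0.06, -0.06 and 0.12 in Ly5.1 replicates 1, 2 and 3. Ly5.1 replicate 3 stood above the other Ly5.1 samples, being the highest of them in 76 of 81 members, and Ltbr-/- replicate 3 was the highest of its group in 70 members. Ltbr-/- replicate 1 was the lowest of its group in 66 members, while Ly5.1 replicates 1 and 2 were lowest in 39 and 40. The highest sample of each genotype was thus shared by most members, but the full order in Ly5.1 was not. The gap between the medians of the genotypes was wider than the spread within either. Without Ly5.1 replicate 3 the count of called members was again 73 and their median was 0.86. Member values made up 10.1%, 10.3% and 10.6% of the summed values of all names in the Ltbr-/- samples and 6.35%, 6.31% and 7.10% in the Ly5.1 samples. In the same samples the median of the tested genes other than members stayed between -0.01 and 0.01. The summed value of all names other than members was also higher, at 11663744, 11751339 and 11866686 in Ltbr-/- against 11000495, 10951117 and 11132158 in Ly5.1 samples.

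**Figure D1:**
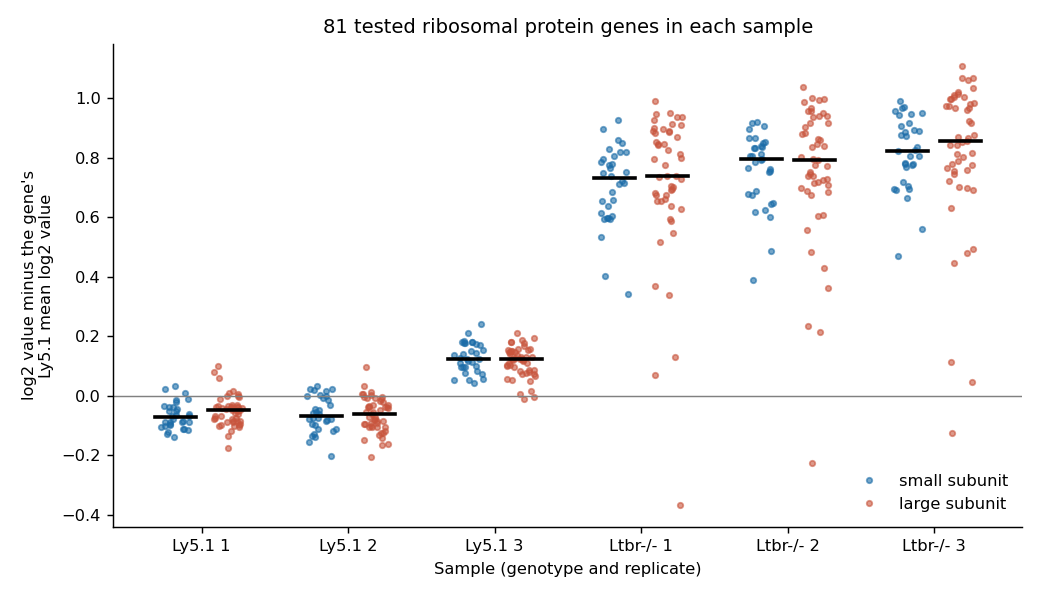
Log2 value of each tested ribosomal protein gene minus the Ly5.1 mean of that gene (y axis, log2 units) in the 6 samples (x axis), for 32 small and 49 large subunit genes, with black bars at the medians. Nearly all points of the Ltbr-/- samples lie above those of the Ly5.1 samples, and Ly5.1 replicate 3 sits at a median of 0.12.

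Most genes of either subunit were called higher. Of the small subunit, 30 of 32 tested genes were called higher, and their log2 fold changes had a median of 0.79. Of the large subunit, 43 of 49 were called higher, with a median of 0.82, and the small minus large subunit median was -0.03. The difference of both medians within a sample, small minus large, was -0.01, 0.00 and -0.03 in Ltbr-/- and -0.02, -0.01 and 0.00 in Ly5.1 samples, so that the values of the genotypes overlapped. The sign of the -0.03 turned when the 3 untested large subunit genes were added, to 0.0035, and when only genes with under 10% of their 76-base transcript windows found in other genes were used, to 0.09.

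In the small subunit, Rps3, which lines the mRNA entry channel, is named for the highest mean on the deposited scale, which is not per length. Its values were 84858, 88037 and 92225 in Ltbr-/- and 46764, 46290 and 53757 in Ly5.1 samples, a log2 fold change of 0.86 ± 0.05 (SE, limma adjusted p = 7.02e-16), with no overlap of the genotypes. With quantile normalization it was 0.34 and not called. The largest difference was in Rps10, a protein of the subunit head and a Diamond-Blackfan anaemia gene, at 10575, 10522 and 11055 against 5371, 5084 and 6305 (log2 fold change 0.95 ± 0.07, limma adjusted p = 5.1e-13). It was followed by Rps14, whose loss is linked to the anaemia of the 5q- syndrome, with 0.91 (0.52 and not called with quantile normalization) and by Rps16 with 0.91. Rpsa, the laminin receptor homologue that sits near the mRNA exit, had values of 32262, 33621 and 34835 against 18333, 17081 and 21176, a log2 fold change of 0.84 (0.43 and not called with quantile normalization). Of the 7 genes of proteins along the mRNA path 6 were called higher, among them Rps3, Rps14, Rps23, Rps26 and Rps28 with log2 fold changes of 0.81 to 0.91, and Rps2 reached 0.48. With quantile normalization 1 of these 7 was called, and of the 32 small subunit genes 12 were.

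In the large subunit, Rpl8, which lies close to the peptidyl transferase centre, is named for the highest mean on the same scale. Its values were 88328, 90784 and 95576 in Ltbr-/- and 44471, 44061 and 54069 in Ly5.1 samples, a log2 fold change of 0.95 ± 0.06 (SE, limma adjusted p = 3.75e-16), and 0.45, not called, with quantile normalization. Rpl13 showed the largest difference of all members, with 14301, 14805 and 15982 against 7031, 7095 and 8158 (log2 fold change 1.02 ± 0.07, limma adjusted p = 1.53e-14), ahead of Rpl27a with 1.01 and the Diamond-Blackfan anaemia gene Rpl27 with 0.995. Rpl13 and Rpl27a were the only 2 members with a fold of 2 or more. The 3 genes of the P stalk, the arm that recruits and activates the elongation factor GTPases, were all called higher, with 0.71 for the base protein Rplp0 (0.13 with quantile normalization), 0.97 for Rplp1 (0.46) and 0.89 for Rplp2, which alone of the 3 was called under that setting. Rpl5 and Rpl11, which form a particle with the smallest ribosomal RNA and can bind Mdm2, the inhibitor of p53, reached 0.74 and 0.73 (0.36 and 0.58, not called, with quantile normalization). All 8 genes at the exit of the peptide tunnel were called higher, from 0.59 for Rpl22 to 0.94 for Rpl39. Rpl10 and Rpl24, which join the large subunit late in its assembly, had 0.74 and 0.92. All 18 listed Diamond-Blackfan anaemia genes were called higher, with a median of 0.80 and the highest value, 0.995, in Rpl27. With quantile normalization 5 of the 8 tunnel exit genes, 11 of the 18 Diamond-Blackfan anaemia genes and 23 of the 49 large subunit genes were called, and with equal totals these counts were 6, 13 and 31.

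**Figure D2:**
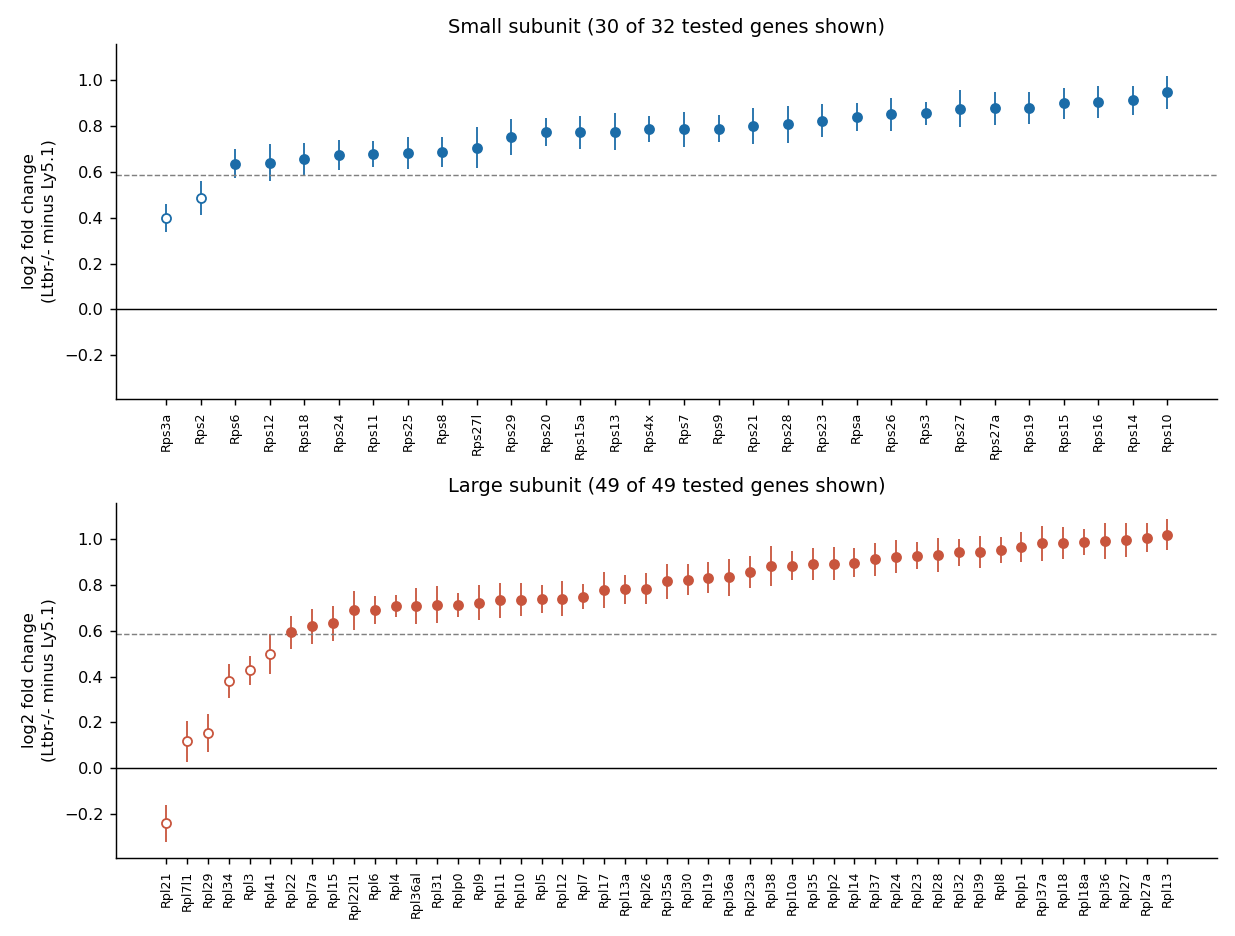
Log2 fold change (Ltbr-/- minus Ly5.1) with its standard error for 30 of the 32 tested genes of the small subunit (top) and all 49 of the large subunit (bottom), ordered by size; filled points were called higher, open points were not, and the dashed line marks 1.5-fold. The filled points run from 0.59 in Rpl22 to 1.02 in Rpl13, with 8 open points beneath the line.

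From member to member, the fold changes were at most weakly related to level, length and base composition. Across the 81 genes, as a description over points that share the same 6 samples, Spearman's rho of the log2 fold change was 0.31 with the mean level, -0.18 with transcript length, 0.25 with GC content and -0.09 with the share of the transcript found in other genes. These correlations compare members with each other only. When the values were corrected for the length and GC content of transcripts, 53 members were called with a median of 0.62, beside 73 and 0.79 without the correction. The members lie on 19 chromosomes. A single member, Rpl32, is on the chromosome of Ltbr, at 9.5 Mb from it between midpoints, with a log2 fold change of 0.94. The 3 members on the chromosome of Ptprc, Rpl7, Rpl31 and Rpl37a, lie at least 65.4 Mb from that gene and had 0.75, 0.71 and 0.98.

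Of the 8 tested members that were not called, 5 were higher by the adjusted p but under 1.5-fold. These were Rps3a with a log2 fold change of 0.40, Rps2 with 0.48, Rpl3 with 0.43, Rpl34 with 0.38 and Rpl41 with 0.50, and in each of them the values of the genotypes did not overlap. The adjusted p was no longer passed by Rps3a (-0.013) and Rpl3 (0.11) with quantile normalization and by Rpl34 (0.15) with the length and GC correction. Rps3a, a surface protein of the small subunit, had 16726, 17317 and 18280 against 12436, 13501 and 13732. Rpl34 had 4062, 4133 and 4382 against 3210, 3230 and 3205. In Rpl29, a protein peripheral to the large subunit, the values were 2344, 2488 and 2320 in Ltbr-/- and 2235, 1911 and 2305 in Ly5.1 samples, a log2 fold change of 0.15 (limma adjusted p = 0.24). Rpl7l1 had 900, 1009 and 884 against 907, 802 and 866, and the values overlapped (log2 fold change 0.12, limma adjusted p = 0.44). Rpl21 was the single member with lower values in Ltbr-/- samples, with 2178, 2400 and 2575 against 2808, 2834 and 2784 (log2 fold change -0.24 ± 0.08, limma adjusted p = 0.038), a difference under 1.5-fold.

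Near-identical copies of several of these genes are listed under other names. A copy was counted where at least 10% of the 76-base windows of a member's coding sequence, the read length of the study, occur in its transcript; this definition was made after the values had been seen. By it, 26 members had 38 copies among the names of the files. Of these copies 30 were called higher, and the median over all 38 was 0.70 on the log2 scale. In Rpl41, whose peptide is among the shortest known in mammals, the coding sequence of 78 bases is found without a difference in Gm10736, at chr13:111593534-111593611 on the minus strand of GRCm38. It is shown here because 76-base reads within it cannot be assigned to either name. Only 3 windows of 76 bases fit within it, and over the whole Rpl41 transcript 30.8% of the windows occur in other genes.

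Rpl41 and Gm10736: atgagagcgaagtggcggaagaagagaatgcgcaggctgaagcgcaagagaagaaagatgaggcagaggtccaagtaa

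Gm10736 had values of 8512, 8585 and 8756 in Ltbr-/- and 4631, 4321 and 4776 in Ly5.1 samples, against 1191, 1164 and 1170 and 891, 773 and 835 for Rpl41 itself. The copy had a log2 fold change of 0.91, compared with 0.50 for the parent. Rpl34 is a further case, shown because over the whole coding sequence of 354 bases the gene, at chr3:130726831-130730337 on the minus strand, differs from Rpl34-ps1, at chr6:71124610-71124963 on the plus strand, by only 2 bases (T132C and C318G, counted from the A of the start codon, the base of Rpl34 first). Positions 121 to 330 hold both, in capitals.

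Rpl34: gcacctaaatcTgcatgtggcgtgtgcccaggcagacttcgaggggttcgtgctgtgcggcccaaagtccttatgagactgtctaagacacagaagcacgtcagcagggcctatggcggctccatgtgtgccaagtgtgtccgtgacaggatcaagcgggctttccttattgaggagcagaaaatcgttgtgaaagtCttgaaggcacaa
Rpl34-ps1: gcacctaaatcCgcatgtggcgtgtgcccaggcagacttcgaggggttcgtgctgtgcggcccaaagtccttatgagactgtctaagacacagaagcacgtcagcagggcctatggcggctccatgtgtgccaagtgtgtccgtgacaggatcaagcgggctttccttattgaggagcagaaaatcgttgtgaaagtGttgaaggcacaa

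Rpl34-ps1 had values of 12936, 13592 and 14016 in Ltbr-/- and 6498, 6757 and 7737 in Ly5.1 samples, and a log2 fold change of 0.95. The Rpl29 copy Gm8210, which differs from the coding sequence of 483 bases at 3 positions (C72A, C300T and T423C), had 5003, 5194 and 5301 against 2357, 2170 and 2578, a log2 fold change of 1.13. For Rps2 the copies Gm10420 and Gm6139 had 0.91 and 0.92. For Rpl3, Gm12816 and Gm5879 had 0.67 and 0.55. For Rpl21 the 5 names counted as copies ranged from 0.22 in BC004004 to 0.74 in Gm11703, all above 0 while Rpl21 itself was below 0. Of these names, BC004004 is a longer gene that spans Gm10045 (log2 fold change 0.60) on the same strand. Both hold 43.9% of the coding windows of Rpl21 and differ from it at 7 bases. The 5 names are thus not 5 separate loci. When each gene was summed with its copies, the log2 fold change was 0.86 for Rpl41, 0.81 for Rpl34, 0.73 for Rpl29, 0.74 for Rps2, 0.51 for Rpl3 and 0.32 for Rpl21, where both BC004004 and Gm10045 were added. A fold of 1.5 or more was reached by 4 of these 6 sums, and over the 26 members with copies, the median was 0.73 for the genes alone and 0.76 for the sums. How the authors' counting divided reads between genes and copies was not tested, and no copy by this definition was among the names for Rps3a or Rpl7l1. Of the coding windows of Rps3a, 74.9% still occur in other genes of the annotation, so its value is uncertain to that extent.

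**Figure D3:**
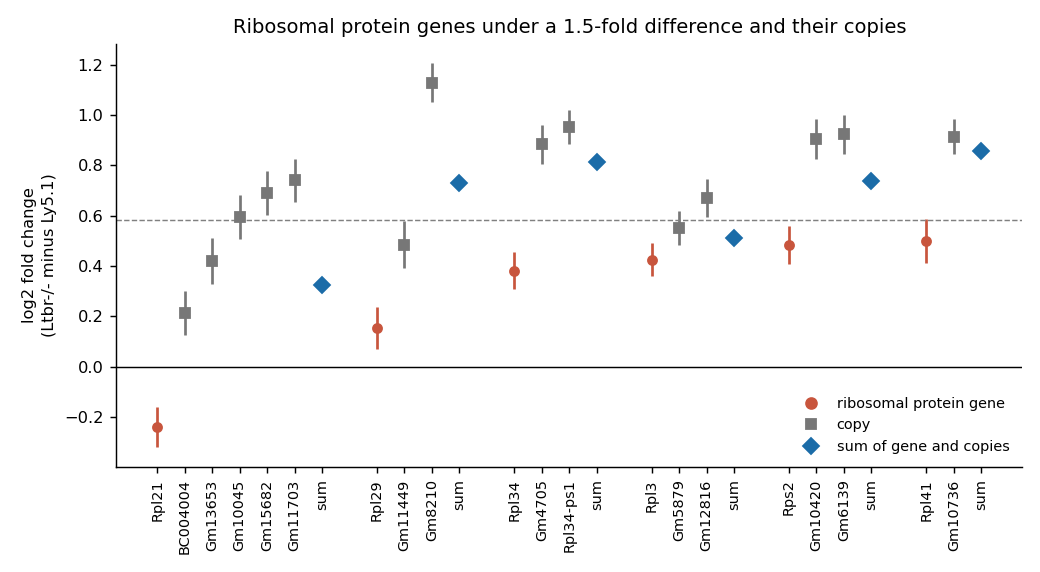
Log2 fold change (Ltbr-/- minus Ly5.1) of 6 ribosomal protein genes under a 1.5-fold difference (circles), their copies listed under other names (squares, both with standard errors) and the sum of gene and copies (diamonds, without an error); the dashed line marks 1.5-fold. Each copy lies above its parent gene, from 0.22 in BC004004 to 1.13 in Gm8210. BC004004 spans the copy Gm10045 and is not a separate locus from it.

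Members with few shared windows were also mostly called higher. In Rps3, which was called higher, 0% of the 76-base windows of the transcript occur in another gene. Of the 10 tested members with under 10% shared windows over the whole transcript, 9 were called higher, and the median over the 10 was 0.79 on the log2 scale. The exception was Rpl7l1. These 10 include Rps20 and Rps15a, of whose coding windows alone 83.2% and 65.7% are shared. By coding windows, 6 tested members had under 10% shared, a limit set after the values were seen, and 5 of these were called higher. All coding windows of Rpl13, Rpl27a, Rpl27, Rps27, Rpl36a and Rpl36al, 100%, occur in another gene of the annotation as well, and the values of these genes are uncertain to that extent.

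Several ribosomal proteins have a paralogue gene whose product can take the place of the parent protein or has a role of its own, and 4 such pairs were tested in both members. Rpl22l1 and Rpl22, whose balance is known to matter in lymphocyte development, were both called higher, Rpl22l1 with 2308, 2264 and 2295 against 1257, 1518 and 1500 (log2 fold change 0.69) and Rpl22 with 7480, 7782 and 7934 against 4669, 5150 and 5600 (log2 fold change 0.59). The ratio of paralogue to parent was 0.309, 0.291 and 0.289 in Ltbr-/- and 0.269, 0.295 and 0.268 in Ly5.1 samples, and these values overlapped. Rps27l, a p53 target gene, and Rps27 rose by log2 fold changes of 0.70 and 0.88, and their ratio was lower in all 3 Ltbr-/- samples (0.280, 0.297 and 0.284) than in the Ly5.1 samples (0.326, 0.327 and 0.316). The coding sequences of this pair are shown because, unlike the copies above, they differ at many bases, 61 of 255, in capitals, with Rps27 at chr3:90212671-90213651 and Rps27l at chr9:66946086-66949512 of GRCm38.

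Rps27: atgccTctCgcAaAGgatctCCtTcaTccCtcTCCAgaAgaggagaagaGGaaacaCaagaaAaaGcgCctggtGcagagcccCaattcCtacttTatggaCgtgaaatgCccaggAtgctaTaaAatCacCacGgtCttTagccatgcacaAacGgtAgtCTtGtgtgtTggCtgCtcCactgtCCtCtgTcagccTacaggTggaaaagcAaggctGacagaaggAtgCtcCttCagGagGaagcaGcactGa
Rps27l: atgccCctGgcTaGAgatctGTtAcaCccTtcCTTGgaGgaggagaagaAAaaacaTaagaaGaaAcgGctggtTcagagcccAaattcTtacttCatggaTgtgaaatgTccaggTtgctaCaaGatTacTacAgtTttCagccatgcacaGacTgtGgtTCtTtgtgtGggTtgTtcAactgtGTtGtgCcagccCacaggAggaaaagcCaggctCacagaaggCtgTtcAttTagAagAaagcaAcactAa

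Rpl36al and Rpl36a, with 282 of 321 coding bases identical, rose by log2 fold changes of 0.71 and 0.83, and their ratio was 1.42, 1.38 and 1.44 in Ltbr-/- against 1.59, 1.46 and 1.58 in Ly5.1 samples. Between Rpl7l1 and Rpl7 the ratio was 0.0347, 0.0377 and 0.0314 in Ltbr-/- and 0.0584, 0.0502 and 0.0521 in Ly5.1 samples. Rpl7, a protein of the large subunit surface, had 25948, 26784 and 28132 against 15531, 15981 and 16611 (log2 fold change 0.75), while Rpl7l1, a paralogue of distant sequence, did not pass the test. The log2 ratio of paralogue to parent changed by 0.10 for Rpl22l1, -0.17 for Rps27l, -0.13 for Rpl36al and -0.63 for Rpl7l1. With quantile normalization the change was -0.24 for Rpl7l1 and 0.28 for Rpl22l1. In exact two-sided permutation tests, p was 0.3, 0.1, 0.1 and 0.1 in this order, adjusted over the 4 pairs to 0.3, 0.13, 0.13 and 0.13, and 0.1 is the smallest p that 3 against 3 samples allow, so that none could pass the threshold. The paralogues Rpl3l, the form of heart and skeletal muscle, Rpl10l and Rpl39l, both forms of the testis, were not among the tested names. Rpl3l had values of 8.36 to 8.67 in Ltbr-/- and 8.35 to 8.92 in Ly5.1 samples, Rpl39l lay between 3.32 and 3.48 in all samples, and Rpl10l was listed at 0.254 to 0.255, near the lowest value of the files.

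**Figure D4:**
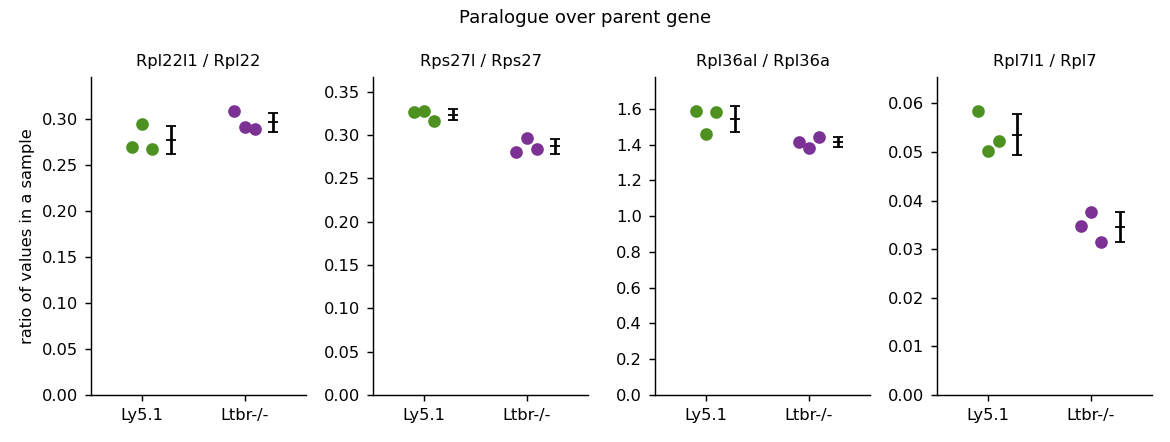
Ratio of the paralogue value to the parent gene value in each sample (points) with mean and SD (bars) for Ly5.1 and Ltbr-/- samples. The ratios of Rpl7l1 to Rpl7 are below 0.04 in the 3 Ltbr-/- samples and above 0.05 in the 3 Ly5.1 samples, while those of Rpl22l1 to Rpl22 overlap.

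RefSeq promoter sequences were at hand for 64 of the 84 members (76 promoters of 300 bases, GRCm38.p6, from 250 bases before the annotated start). Between 60 bases before and 50 bases after that start, an uninterrupted run of at least 9 C or T on the sense strand was found in 76.3% of the member promoters and in 27.6% of all 32851 promoters, and in 25.4% of those of tested genes other than members. The letters CTTTCC, searched on the sense strand in the same stretch and at times within such a run, were found in 30.3% against 5.06%, and in 4.59% of those of the other tested genes. CCGGAAG, a sequence bound by ETS family factors, was found on either strand of the 300 bases in 35.5% against 8.86%, but also in 17.0% of the promoters of the other tested genes, 34.7% of those of mitochondrial ribosomal protein genes and 27.6% of those of ribosome assembly genes. A run of at least 9 C or T was found in only 4 of 11 promoters (36.4%) of other genes known for TOP mRNAs. Promoters of called members had it in 80.3%, and those of members not called in 3 of 6. The windows below show the longest run in capitals for members at the upper end (Rps10, Rpl13, Rpl27a), at the highest mean (Rps3) and at the lower end of the fold changes (Rps3a, Rps2, Rpl7l1; Rps3a is Rps3a1 in RefSeq). For a gene with several promoters, the promoter with the longest run was taken, so the windows are a selection by run length. Their positions, in that order, are chr17:27635226-27635255 (minus strand), chr8:123102324-123102353 (plus strand), chr7:109519186-109519215 (plus strand), chr7:99483739-99483768 (minus strand), chr3:86142623-86142652 (minus strand), chr17:24720083-24720112 (plus strand) and chr17:46782670-46782699 (minus strand).

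Rps10: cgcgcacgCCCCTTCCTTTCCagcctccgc
Rpl13: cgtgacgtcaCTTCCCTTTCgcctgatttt
Rpl27a: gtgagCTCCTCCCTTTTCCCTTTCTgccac
Rps3: cgcaaaacttcaTTTCCCatgcaaaacttc
Rps3a: acgtagacggcgCTCCCCgcccggctcgcg
Rps2: aaattgtcccttccgcggcgCCTCCCTCTT
Rpl7l1: gtcgaggcgggCCTCTCTaccccgcccggt

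Rps10, Rpl13 and Rpl27a, with log2 fold changes of 0.95, 1.02 and 1.01, have runs of 13, 10 and 20 bases that begin 3, 16 and 4 bases before the annotated start. The GENCODE transcripts of Rps10 and Rpl27a start elsewhere, at positions 27635545 and 109519147, outside the windows shown. That of Rpl13 starts at 123102350, within its window. In Rps3a, Rps2 and Rpl7l1 the runs are 6, 10 and 7 bases long. They begin 28 and 40 bases after the annotated start in Rps3a and Rps2, and 32 bases before it in Rpl7l1. The run of Rps2 reaches the end of the stretch searched, so that its full length is not known. In GENCODE the Rps2 transcript starts at position 24720110, within this run. Rps3, with a log2 fold change of 0.86, has a longest run of 6 bases, which begins 47 bases before the annotated start. A long run at the annotated start thus did not go with every high fold change. The starts are those of the annotation, and no start was measured in these cells.

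Genes that act beside the ribosome were compared next. The 3 tested genes whose products sit on the ribosome or are made as a fusion with it were all called higher, among them Fau, which encodes a ribosomal protein fused to a ubiquitin-like protein, with a log2 fold change of 1.07, and Gnb2l1 (Rack1), the scaffold protein on the small subunit, with 0.95. Of 16 other genes known for TOP mRNAs, 5 were called higher and 0 lower, with a median of 0.51, and 14 passed the adjusted p alone in the higher direction, against 10.6% of all tested names. The called genes were the elongation factor subunits Eef1b2 with 0.77, Eef1d with 0.72 and Eef1g with 0.998, and the initiation factor subunits Eif3f with 0.99 and Eif3h with 0.83. Eef1g had 28415, 30033 and 30737 in Ltbr-/- and 14355, 14572 and 15724 in Ly5.1 samples. Eef1a1, which brings aminoacyl-tRNA to the ribosome, stayed under 1.5-fold with 0.53, as did Eef2 with 0.35 and Tpt1 with 0.45. Eif4b with -0.03 and Hnrnpa1 with 0.03 did not pass the test.

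Factors that build the ribosome were compared as well. Of 27 ribosome assembly genes, 1 was called higher and 0 lower, against 2.72% and 0.061% of all tested names, and the list had a median of 0.07 on the log2 scale (6 higher and 3 lower at an unadjusted limma p below 0.05, against 15.7% and 11.4% of all tested names). The called gene was Nhp2, a core protein of the particles that modify ribosomal RNA, with 2328, 2298 and 2479 against 1492, 1392 and 1322 (log2 fold change 0.76). Nop10 with 0.47 and Eif6 with 0.41 were higher by the adjusted p alone. Ncl, the nucleolar protein nucleolin, had 19051, 19046 and 20316 against 18701, 19093 and 18665 (log2 fold change 0.05, limma adjusted p = 0.64). Polr1a, the largest subunit of the polymerase that makes ribosomal RNA, had -0.26 (limma adjusted p = 0.035) and stayed under 1.5-fold. Of the 76 proteins of the mitochondrial ribosome, 0 were called in either direction by limma, with a median of 0.20, and 70 of 76 lay above 0. By the adjusted p alone 24 were higher and 0 lower, against 10.6% and 4.18% of all tested names. At an unadjusted p below 0.05 there were 39 and 0, against 15.7% and 11.4%. Without Ltbr-/- replicate 1 or 2, 1 was called higher.

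**Figure D5:**
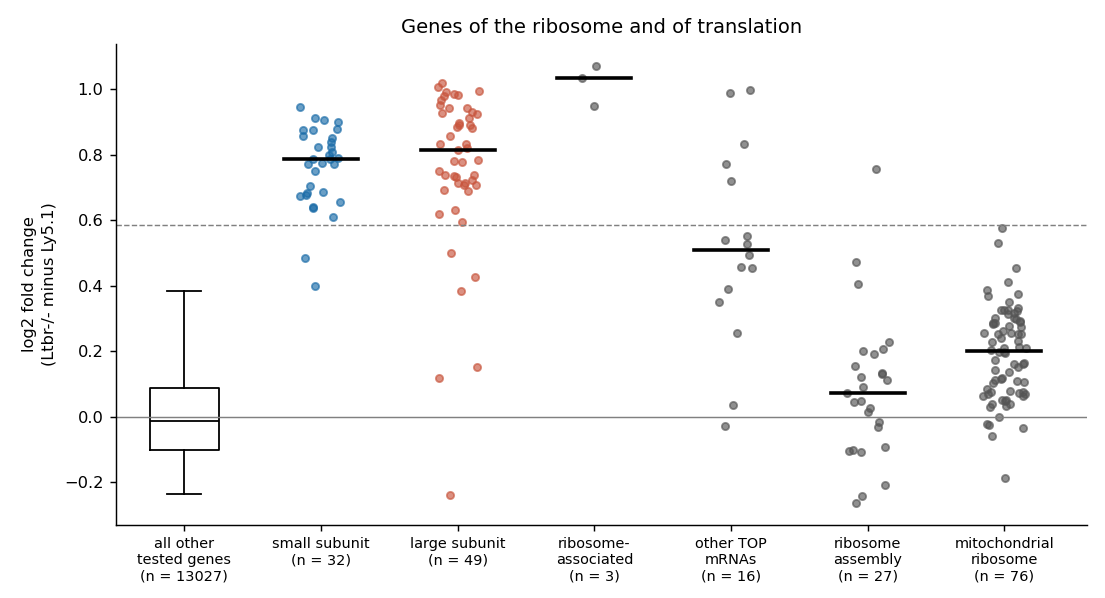
Log2 fold change (Ltbr-/- minus Ly5.1) of the tested genes of each list (points, black bar at the median) beside the other tested genes (box from the 25th to the 75th percentile, whiskers at the 5th and 95th percentile); the dashed line marks 1.5-fold. The ribosomal proteins centre near 0.8, the other TOP mRNAs at 0.51, the mitochondrial ribosome at 0.20 and ribosome assembly at 0.07.

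Cells with lineage markers had been gated out in the sort. Markers of other blood cells still moved with the genotype beside the ribosomal protein genes, and their part in the result was not tested. All 8 granulocyte genes were lower by the adjusted p alone, with log2 fold changes from -0.57 in Camp to -0.24 in Prtn3 and a summed value of 42902 to 43418 in Ltbr-/- against 56241 to 60671 in Ly5.1 samples, and 0 of 8 reached 1.5-fold. Of 6 mast cell and basophil genes, 1 was called higher, Cma1 with 1.32. By the adjusted p alone 2 were higher and 0 lower, against 10.6% and 4.18% of all tested names. Only 3 of the 6 lay above 0. The summed value was 7085 to 7477 against 3416 to 4021, most of it from Cma1, with means of 5470 and 2195. Fcer1a, Ms4a2 and Gzmb stayed under 42 in mean value in both genotypes. Of 6 erythroid genes, 1 was called, Hba-a1 with 0.99, and the sum was 3742 to 4080 against 2829 to 3071. Of 5 tested B cell and plasma cell genes, Ighm with -1.04 and Igkc with -1.21 were lower, Cd79a with 0.62 was higher, and the sum was 1453 to 1582 against 2313 to 2475. Of 5 monocyte and macrophage genes, 1 was called higher, Emr1 with 0.83, with sums of 5991 to 6735 against 6593 to 7129. By the adjusted p alone 2 of the 5 were higher, Emr1 among them, and 1 was lower, Lyz2 with -0.42. Csf1r had -0.27 (limma adjusted p = 0.059). Of the megakaryocyte genes, 0 of 4 were called (1 higher and 2 lower at an unadjusted p below 0.05), with sums of 13579 to 14395 against 11480 to 12767. Of the 3 multipotent progenitor genes 0 were called (2 lower at an unadjusted p below 0.05), with sums of 2973 to 3316 against 3797 to 4002. The same 2, Flt3 with -0.28 and Cd34 with -0.31, were lower by the adjusted p alone, against 4.18% of all tested names. The T cell genes Cd3e, Cd4 and Cd8a and the B cell gene Ms4a1 were below the tested range.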

How the data were processed

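RNA of LT/ST-HSCs was sequenced in 3 Ltbr-/- and 3 Ly5.1 samples, with groups and replicate numbers taken from the sample labels; p-values measure the spread between pooled samples. The authors prepared stranded mRNA libraries, assembled 76-base single reads to the mouse genome with SeqMan NGen (builds GRCm38 and mm10 are named in the submitters' processing notes), quantified genes with ArrayStar and normalized them with DESeq2. They deposited 1 signal value per gene and sample, taken here, from the values and the study's methods, to be 2 to the power of a regularized log2 value, in which folds of low genes are shrunken; no file header states it. The deposited values carry no read depth per sample, so no counting interval was given.

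The ribosomal protein genes and all lists were chosen with earlier results of these data known. For repeated names the entry with the highest mean was used. The log2 of the signal was tested without a pseudocount in limma 3.58.1 (R 4.3.3; lmFit, eBayes with trend) over the upper 50% of names by mean, and a gene was called where its fold was 1.5 or more and its p, adjusted by Benjamini-Hochberg, was below 0.05. On simulated data for this comparison with 13108 genes, 200 of them changed by 2-fold or more, 100% of the changed genes were recovered. Only 2 members had a fold of 2 or more, so recovery at the size of most member changes was not tested. Paralogue ratios were compared by exact permutation (SciPy 1.17.1). Named were the 3 largest and 3 smallest fold changes and the highest mean of each subunit, all paralogue pairs, all members not called or not tested, and fixed role groups; copies, Rpl32 and the members near Ptprc were chosen after their values were seen. Transcripts were those of GENCODE for GRCm38 and promoters those of RefSeq. Rps4l was not analysed here. Alternatives were other filters, scalings, a pseudocount, a length and GC correction, no trend, the replicate number as a block, leaving out each sample and, added after the data were seen, sums with copies and a limit on shared coding windows. A few genes of the lists and of the named members are not reported here by name, though the counts include them.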

Additional observations from a re-analysis of the deposited data

How the results depend on the processing

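The count of 73 called members was 70 to 73 when 1 sample was left out and 73 under the stricter and the absent filter, a pseudocount, no trend, the mean of repeated names and centring on other genes. It was 52 with equal totals, which lowered the median of the other genes by 0.15, 53 with the length and GC correction and 35 with quantile normalization, with 0 members lower in each. It was 2 at a fold of at least 2, 78 by adjusted p alone (1 lower), 9 of 10 for members with few shared transcript windows and 5 of 6 for those with few shared coding windows. The median log2 fold change of the members was 0.55 with quantile normalization, 0.63 with equal totals and 0.62 with the length and GC correction, and 0.76 to 0.86 when 1 sample was left out. The small minus large subunit median was -0.03, and became 0.0035 with no filter, -0.070 with quantile normalization and 0.093 with few shared windows, with -0.045 to -0.0056 when 1 sample was left out.

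For Rpl22l1 against Rpl22, the change of 0.10 became 0.28 with quantile normalization and -0.039 with the length and GC correction. Rps27l against Rps27 went from -0.17 to -0.083 and -0.098 under these settings, Rpl36al against Rpl36a to -0.014 with the length and GC correction, and Rpl7l1 against Rpl7 from -0.63 to -0.24 with quantile normalization. The called other TOP mRNAs were 3 with quantile normalization, and the called mitochondrial ribosomal proteins 0 to 1 when 1 sample was left out. Single genes that changed sign were Rpl29 (-0.066 with the length and GC correction), Rpl7l1 (-0.035 with equal totals) and Rps3a (-0.013 with quantile normalization). The cause of these shifts was not tested. Same-numbered samples of both genotypes had correlations of deviations of 0.03, -0.01 and 0.09 over all tested genes. Differently numbered samples had -0.07 to 0.05. With 3 samples per genotype, these values cannot decide whether the numbers pair the samples. With the replicate block, the count of called members was 73 and their median 0.79.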

Other observations

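Copies were also listed for members that were called higher. Rps6-ps4 holds the whole coding sequence of Rps6, 750 bases, without a difference, and had values of 29057, 30059 and 31165 in Ltbr-/- and 18910, 18526 and 21979 in Ly5.1 samples (log2 fold change 0.61, beside 0.64 for Rps6). Gm8430 differs from Rps27a at 1 of 471 coding bases and had a log2 fold change of 0.89, beside 0.88 for the gene. Gm10051 differs from Rpl28 at 1 of 414 bases and had 0.96, beside 0.93. Of all 38 copies 8 were not called, and the only one of them below 0 was Wdr89, whose transcript holds a stretch that differs from the Rplp2 coding sequence at 2 of 348 bases. Its values were 88.3, 83.5 and 79.7 in Ltbr-/- and 89.0, 98.2 and 92.5 in Ly5.1 samples, which did not overlap, with a log2 fold change of -0.15 (limma adjusted p = 0.19), beside 0.89 for Rplp2. These genes were picked after their values were seen.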
